A study of Homo sapiens with 6 samples.

Results

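The genes described here are 10 genes of polyamine metabolism, chosen by name: the synthesis enzymes ODC1, AMD1, SRM and SMS, the antizymes OAZ1 and OAZ2, the antizyme inhibitor AZIN1, the acetyltransferase SAT1 and the oxidases SMOX and PAOX. All 10 were found among the 60643 genes of the table, each on 1 row, and 9 of them passed the filter on low values (at least 1 FPKM in at least 3 libraries), as did 14475 genes in all. RNA was sequenced from HCT116, an established human colorectal cancer line that the labels place under the tissue rectum, in which doxycycline switches on a short hairpin RNA (shRNA) to CAPG, a gene that encodes an actin filament capping protein. Cells were given doxycycline at 100 ng/µl, the unit as labelled, for 3 days and are labelled as CAPG knockdown (3 libraries). The cells they were compared with carried the same shRNA, were left without doxycycline and are labelled untreated and WT (3 libraries). The series title names apoptosis, ferroptosis and the p53 pathway as the subject of the comparison. No cells lacking the shRNA were analysed with the drug here, and no cells with another shRNA to CAPG. Effects of doxycycline, of this shRNA on other genes and of the knockdown therefore cannot be told apart. The sources used here do not say whether the line is 1 clone or a pool, or whether replicates were separate cultures; the p-values therefore refer to the spread of these libraries, and that spread may be technical.

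Polyamines are small, positively charged molecules that bind nucleic acids and are needed for translation and growth, and rapidly dividing cells of the gut epithelium and its tumours make and take up large amounts. Ornithine decarboxylase (ODC1) makes putrescine. AMD1 decarboxylates S-adenosylmethionine to give the aminopropyl donor, with which SRM turns putrescine into spermidine and SMS turns spermidine into spermine. Antizymes bind ornithine decarboxylase and send it to the proteasome, AZIN1 binds antizymes in its place, SAT1 acetylates spermidine and spermine for export or oxidation, PAOX oxidises the acetylated forms, and SMOX oxidises spermine directly. Much of this control acts on translation and protein turnover, for example through the frameshift needed to read antizyme mRNA, and is not seen in RNA levels.

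The targeted gene, CAPG, was at 8.18, 8.03 and 9.97 FPKM (fragments relative to the length of the transcript and the size of the library) in replicates 1, 2 and 3 with doxycycline, against 61.1, 56.9 and 53.7 FPKM without it (log2 change -2.59, SE 0.10, limma adjusted p = 7.24e-06). The spacing of the lowest values put depth at roughly 14550000 to 18550000 fragments per library. Replicate 3 with doxycycline stood apart: its FPKM values summed to 586911, against 521832 to 536037 in the other 5 libraries, and it was the highest of its group for 8 of the 10 polyamine genes. Of 12 colorectal epithelial markers, 6 were above 1 FPKM in all libraries (among them EPCAM at 181 to 263 FPKM and CDX2 at 4.41 to 6.35 FPKM) and 6 were below it in all (KRT20, VIL1, CDX1, LGR5, MUC2 and CEACAM5). Markers of other cell types were low: 4 of 5 fibroblast, 4 of 5 leukocyte and 3 of 3 endothelial markers were below 1 FPKM in all libraries, with COL1A2 and CD3E listed at 0. The summed leukocyte markers were at 2.17 to 2.71 FPKM with doxycycline and 4.32 to 4.96 FPKM without it, most of it CD68, and their part in the results was not tested.

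With doxycycline, 3 polyamine genes fell: the spermine synthase gene SMS to 64.7% of its level without doxycycline, AMD1 to 79.6% and SAT1 to 79.4%. None of the 9 tested genes was called higher. Across all tested genes 4.77% were called lower and 3.69% higher by limma, and 8.46% in either direction, while 3 of the 9 polyamine genes (33.3%) were called lower. These genes were chosen with earlier results of these data known. Their share is therefore a description and no test of the set. At an unadjusted limma p under 0.05, 4 of the 9 were lower and 1 was higher, where 14.3% of all tested genes were lower at that p, 13.6% higher and 27.9% either. The median log2 change, on the log2(FPKM + 1) scale used throughout, was -0.22 over the 9 genes and -0.00258 over all 14475. The groups did not overlap in 5 of the 9 genes, against 34.5% of all tested genes. When each library in turn was left out, the SMS call held all 6 times, while the AMD1 call was lost all 6 times and the SAT1 call 5 of 6 times, as given with each gene. A length and GC correction, chosen after seeing the data, also put SRM (lower, limma adjusted p = 0.0385), SMOX (lower, 0.0429) and OAZ1 (higher, 0.0415) past the threshold. That correction called more genes in general: 1214 higher and 1245 lower of 14406, against 534 and 691 in the main fit. In bulk RNA, fewer cells with a transcript and less of it per cell cannot be told apart.

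**Figure D1:**
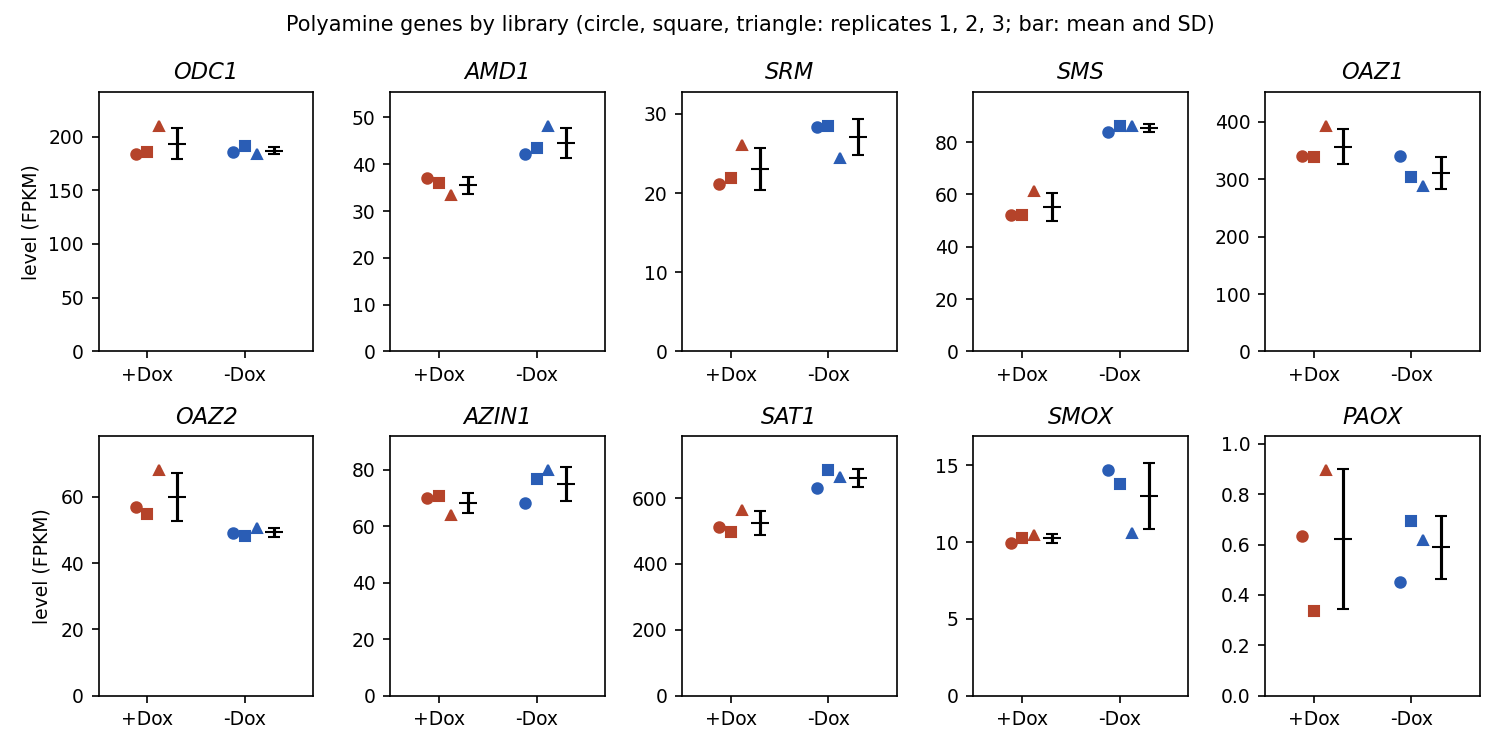
Level in FPKM (y axis, from 0) of each of the 10 polyamine genes in the 3 libraries with doxycycline (+Dox, red) and the 3 without it (-Dox, blue), with mean and SD in black. SMS, AMD1, SAT1, SMOX and OAZ2 show groups that do not overlap, while ODC1 lies between 184 and 210 FPKM in all 6 libraries.

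FPKM divides by transcript length, so levels were compared between genes. The comparison is approximate, since the unit was assumed and sequence composition was not corrected for. In the cells without doxycycline the means ran from 0.589 FPKM for PAOX to 660 FPKM for SAT1. SAT1 was the most abundant of the 10 in both groups (above 99.1% of tested genes), followed by OAZ1 (above 98.4%) and ODC1 (above 97.2%), and the ranges of these 3 over libraries did not overlap. SMS had rank 6 with doxycycline and rank 4 without it, where its 3 values lay above all 3 of AZIN1. With doxycycline AZIN1 (64.0 to 70.8 FPKM), OAZ2 (54.9 to 68.1 FPKM) and SMS (52.1 to 61.3 FPKM) formed a run in which each range overlapped the next. AMD1 had rank 7 and SRM rank 8 in both groups, and SMOX (above 54.3% of tested genes) and PAOX came last. In the cells without doxycycline the ranges of OAZ2 and AMD1 just overlapped, the lowest OAZ2 value being 48.1 and the highest AMD1 value 48.2 FPKM.

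SMS and AMD1, which fell, and SRM, which did not pass the test, act together in making spermidine and spermine, and SAT1 acts on their products. Their upstream sequences are shown so that the promoters of these 4 genes can be compared. Each is the 250 bases before the RefSeq start site nearest to the start in the table, from RefSeq on GRCh38.p14, in the direction of transcription: chrX:21940459-21940708 on the plus strand for SMS, chr1:11060019-11060268 on the minus strand for SRM, chr6:110874534-110874783 on the plus strand for AMD1 and chrX:23782923-23783172 on the plus strand for SAT1. Capitals mark the E-box CACGTG, bound by MYC and related factors, the CCAAT box CCAAT and the GC box GGGCGG, each searched on both strands (ATTGG and CCGCCC are the reverse strand), and no marked motifs overlap.
SMS: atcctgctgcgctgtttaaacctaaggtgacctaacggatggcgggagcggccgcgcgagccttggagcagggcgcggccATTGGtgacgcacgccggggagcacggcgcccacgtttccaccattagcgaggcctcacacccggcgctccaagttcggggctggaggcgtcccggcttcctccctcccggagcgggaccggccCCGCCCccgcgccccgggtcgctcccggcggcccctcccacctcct
SRM: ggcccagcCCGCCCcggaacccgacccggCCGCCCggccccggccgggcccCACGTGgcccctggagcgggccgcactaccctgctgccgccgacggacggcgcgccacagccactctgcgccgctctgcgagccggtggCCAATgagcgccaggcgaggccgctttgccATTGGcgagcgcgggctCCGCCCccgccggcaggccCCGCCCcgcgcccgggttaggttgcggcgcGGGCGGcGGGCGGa
AMD1: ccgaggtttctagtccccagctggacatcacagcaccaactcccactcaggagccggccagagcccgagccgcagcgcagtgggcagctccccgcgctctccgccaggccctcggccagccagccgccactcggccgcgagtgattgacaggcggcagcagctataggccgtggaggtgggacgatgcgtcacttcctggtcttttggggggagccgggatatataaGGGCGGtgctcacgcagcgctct
SAT1: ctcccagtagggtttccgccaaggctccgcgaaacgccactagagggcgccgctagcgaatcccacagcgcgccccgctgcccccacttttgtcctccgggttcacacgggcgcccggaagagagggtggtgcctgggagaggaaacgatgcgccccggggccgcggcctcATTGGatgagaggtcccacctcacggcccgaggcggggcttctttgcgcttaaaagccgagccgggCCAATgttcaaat

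Of these 4 windows, SRM was the only one with an E-box, which began 199 bases before its start site. Over all 35116 windows of the same length, 6.34% held an E-box, and among the 7 polyamine genes matched by symbol (all but AZIN1, SMOX and PAOX) 1 did. The CCAAT box was in 4 of 7 polyamine windows (SAT1, OAZ1, SRM and SMS), against 32.0% of all windows, and the GC box was in 6 of 7, SAT1 being the exception, against 42.6%. The windows of the 7 genes held between 66.4% and 82.0% G and C, where the median window held 58.0%. The motif TATAAA and the antioxidant response core TGACNNNGC were in 0 of the 7, against 10.7% and 10.9% of all windows. Only these exact letters were searched, and the AMD1 window holds the similar tatataa directly before its GC box. The genes that fell did not share a motif of this set that the others lacked.

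Of the synthesis enzymes, SMS changed most. SMS (ENSG00000102172, chromosome X, 21940709 to 21994837, GRCh38) was at 52.3, 52.1 and 61.3 FPKM in replicates 1, 2 and 3 with doxycycline, against 83.8, 86.2 and 86.1 FPKM without it. Every library with doxycycline lay below every library without it, and replicate 3 with doxycycline, the highest of its group, was still below replicate 1 without it, the lowest of the other group. The mean was 55.2 ± 5.26 FPKM with doxycycline and 85.3 ± 1.32 FPKM without it (SD, n = 3 each), a log2 change of -0.62 (SE 0.08, 95% interval -0.81 to -0.43, limma adjusted p = 0.00526). Among the 691 genes called lower it was 66th by p and 190th by size of the fall. Leaving out each library in turn gave log2 changes between -0.70 and -0.58 with limma adjusted p between 0.00418 and 0.0320.

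AMD1 (ENSG00000123505, chromosome 6, 110874770 to 110898879) was at 37.0, 36.0 and 33.4 FPKM with doxycycline, against 42.1, 43.4 and 48.2 FPKM without it, so the groups did not overlap. It fell by 0.32 on the log2 scale (SE 0.08, 95% interval -0.51 to -0.13), with a limma adjusted p of 0.0493 that only just passed the threshold. No fit with a library left out kept the call: without replicates 1, 2 and 3 with doxycycline the adjusted p was 0.0853, 0.118 and 0.0788, and without replicates 1, 2 and 3 of the untreated group it was 0.0724, 0.143 and 0.112. It was also lost with median-of-ratios scaling (0.0521), with no filter on low values (0.135) and in a fit without the trended, robust variance (0.0762). AMD1 and AZIN1 were the genes in which replicate 3 with doxycycline was the lowest of its group and not the highest.

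SRM (ENSG00000116649, chromosome 1, 11054584 to 11060020), which makes spermidine, was at 21.2, 21.9 and 26.1 FPKM with doxycycline, against 28.3, 28.5 and 24.4 FPKM without it. Replicate 3 with doxycycline lay above replicate 3 without it, so the groups overlapped, and the gene did not pass the test (log2 change -0.22, 95% interval -0.46 to 0.01, limma adjusted p = 0.199). With every library scaled to the same total the groups no longer overlapped, and the adjusted p was 0.0801. That scaling moved the median log2 change of all tested genes by -0.05. ODC1 (ENSG00000115758, chromosome 2, 10439968 to 10448327), whose product is the best known control point of the pathway, was at 184, 186 and 210 FPKM with doxycycline, against 186, 191 and 184 FPKM without it. Its log2 change was 0.04 (95% interval -0.13 to 0.22, adjusted p = 0.758), and its sign turned, to -0.01, with libraries scaled to equal totals and, to -0.02, without replicate 3 with doxycycline. The interval does not reach a rise or a fall as large as that of SMS.

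**Figure D2:**
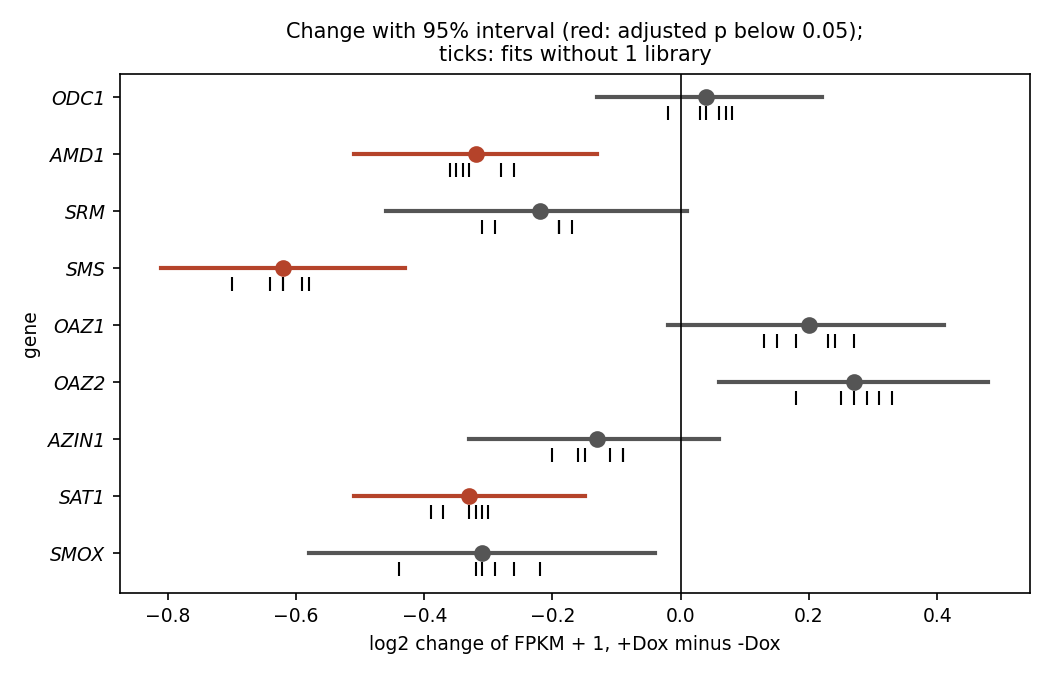
Log2 change of FPKM + 1 with against without doxycycline (x axis) for the 9 tested polyamine genes, with the 95% interval from limma as a line and the 6 fits with a library left out as black ticks. Red marks SMS, AMD1 and SAT1, whose adjusted p was below 0.05; the ticks of SMS lie between -0.70 and -0.58.

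The genes that control ornithine decarboxylase protein did not pass the test. OAZ1 (ENSG00000104904, chromosome 19, 2269509 to 2273490), the main antizyme gene, was at 340, 338 and 393 FPKM with doxycycline, against 341, 303 and 288 FPKM without it, and replicate 1 without doxycycline lay among the treated values. Its log2 change was 0.20 (95% interval -0.02 to 0.41, limma adjusted p = 0.209). OAZ2 (ENSG00000180304, chromosome 15, 64687573 to 64703281), a second antizyme, was at 56.9, 54.9 and 68.1 FPKM with doxycycline, against 49.1, 48.1 and 50.7 FPKM without it. All 3 OAZ2 values with doxycycline were higher, but replicate 3 lay well above the other 2, and the log2 change of 0.27 (95% interval 0.06 to 0.48) had an adjusted p of 0.0985, or 0.127 without that replicate. AZIN1 (ENSG00000155096, chromosome 8), a homologue of ornithine decarboxylase without its activity, was at 69.9, 70.8 and 64.0 FPKM with doxycycline, against 68.3, 76.7 and 79.9 FPKM without it (log2 change -0.13, 95% interval -0.33 to 0.06, adjusted p = 0.353).

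Of the genes that break polyamines down, SAT1 fell. SAT1 (ENSG00000130066, chromosome X, 23783173 to 23786226), whose product starts polyamine breakdown and has been linked to ferroptosis downstream of p53, was at 512, 497 and 565 FPKM with doxycycline, against 631, 685 and 665 FPKM without it. The highest value with doxycycline was below the lowest without it. The log2 change was -0.33 (SE 0.08, 95% interval -0.51 to -0.15, limma adjusted p = 0.0355). Without replicate 3 with doxycycline the adjusted p was 0.00986, but the call was lost without treated replicates 1 and 2 (0.0921 and 0.131) and without untreated replicates 1, 2 and 3 (0.0735, 0.165 and 0.0958). It was also lost with no filter on low values (0.102) and in a fit without the trended, robust variance (0.0650). With libraries scaled to equal totals the change was -0.39 (0.00471). That scaling moved the median log2 change of all tested genes by -0.05. It called 875 genes lower and 453 higher, against 691 and 534 in the main fit.

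SMOX (ENSG00000088826, chromosome 20, 4120980 to 4187747), the spermine oxidase, was at 9.96, 10.3 and 10.5 FPKM with doxycycline, against 14.7, 13.8 and 10.6 FPKM without it. The treated values were close together and replicate 3 of the untreated group lay just above them, so that the groups were separated by less than 0.1 FPKM. The gene did not pass the test (log2 change -0.31, 95% interval -0.58 to -0.04, limma adjusted p = 0.135), but without that untreated replicate it did (log2 change -0.44, adjusted p = 0.0423). PAOX (ENSG00000148832, chromosome 10, 133379261 to 133391694), the peroxisomal oxidase of acetylated polyamines, was at 0.634, 0.338 and 0.896 FPKM with doxycycline, against 0.453, 0.695 and 0.619 FPKM without it. It stayed under 1 FPKM in every library and was not tested; a count of 3 fragments in a 1 kb transcript corresponds to 0.162 to 0.206 FPKM here, and the PAOX values lay not far above that.

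Ratios between 2 genes within a library do not depend on how the library was scaled. They reuse the values tested above, so they are a description and no separate support for the calls. How often the ratios of other gene pairs overlap between groups was not computed. The log2 ratio of SMS to SRM was 1.30, 1.25 and 1.23 with doxycycline, against 1.57, 1.60 and 1.82 without it, and that of SAT1 to ODC1 was 1.47, 1.42 and 1.43 with doxycycline, against 1.77, 1.84 and 1.85 without it. The replicates with doxycycline differed by less than 0.1 in both ratios, replicate 3 included, and the groups did not overlap. The ratio of AMD1 to ODC1 was lower as well, at a mean of -2.44 ± 0.18 with doxycycline and -2.07 ± 0.12 without it (SD, n = 3 each), again without overlap. The groups overlapped in the 3 other ratios computed: ODC1 to OAZ1 (mean -0.88 with doxycycline and -0.73 without it), AZIN1 to OAZ1 (mean -2.38 with doxycycline and -2.05 without it) and OAZ2 to OAZ1 (mean -2.58 with doxycycline and -2.65 without it). The ODC1 to OAZ1 ratio of untreated replicate 1 (-0.88) was at the level of the treated libraries, while untreated replicates 2 and 3 were at -0.66 and -0.65.

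**Figure D3:**
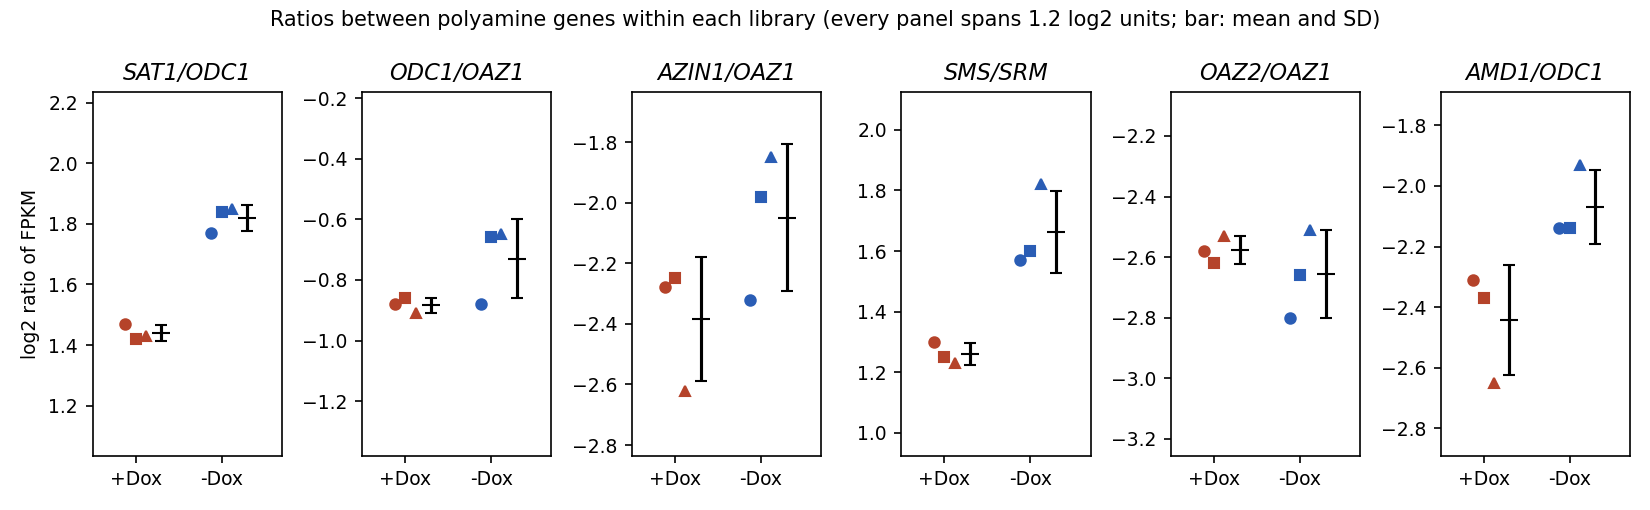
Log2 ratio of the FPKM of 2 polyamine genes within each library (y axis; every panel spans the same height), for replicates 1, 2 and 3 (circle, square, triangle) with doxycycline (+Dox, red) and without it (-Dox, blue), with mean and SD in black. The ratios of SAT1 to ODC1, SMS to SRM and AMD1 to ODC1 do not overlap between groups, while the 3 ratios to OAZ1 do.

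Rows that could share reads with these genes held little. The processed pseudogenes OAZ1P1, SRMP1 to SRMP3 and AMD1P1 to AMD1P4 stayed at or below 0.0900 FPKM, and the ODC1 pseudogene ODCP at or below 0.804 FPKM. A locus on the same strand that spans OAZ1, AC005258.1, was at 3.5e-22 FPKM at most. ODC1-DT, beside ODC1, reached 1.11 FPKM, and SNORA80B, within the ODC1 locus, was listed at 0. Of 3 opposite-strand rows overlapping OAZ2, AC100830.2 was at 2.23 FPKM in replicate 1 with doxycycline and listed at 0 in the other 5 libraries, while AC100830.1 and AC100830.3 stayed at or below 0.752 FPKM. Of the opposite-strand rows overlapping AZIN1, AP003696.1 and AP003354.1 stayed at or below 0.275 FPKM. The antisense gene AZIN1-AS1 was at 0.451, 0.593 and 0.334 FPKM with doxycycline, against 0.934, 0.687 and 1.04 FPKM without it, and JSRP1, which overlaps the start of OAZ1 on the opposite strand, reached 4.42 FPKM. AL360181.3, on the same strand as PAOX and overlapping it, was at 0.667 to 1.14 FPKM with doxycycline and 0.880 to 1.40 FPKM without it, as high as PAOX itself. The sources used here do not state whether reads were counted by strand, so the PAOX values are uncertain and those of AZIN1, OAZ1 and OAZ2 could hold an antisense part. SMS, SAT1 and SMOX had no such row.

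Of 8 tested genes of ornithine and arginine supply limma called 0 higher and 0 lower (0 and 2 at an unadjusted p under 0.05, which 27.9% of all tested genes reached), with a median log2 change of -0.09. The smallest p-values belonged to ALDH18A1, which makes the precursor of ornithine and proline (27.5 ± 0.965 FPKM with doxycycline and 33.5 ± 2.04 without it, SD, n = 3 each, adjusted p = 0.0674), and the cationic amino acid transporter gene SLC7A2 (2.52 FPKM with doxycycline and 3.44 FPKM without it, 0.128). The methionine cycle provides S-adenosylmethionine, the substrate of AMD1, and 5-methylthioadenosine, the by-product of SRM and SMS, is cleared by MTAP. Of 11 tested genes of this cycle and of methylthioadenosine salvage, 2 fell and 0 rose, against 4.77% of all tested genes called lower, and the median was -0.06. MTAP was at 98.8, 101 and 93.7 FPKM with doxycycline, against 116, 125 and 137 FPKM without it (log2 change -0.36, limma adjusted p = 0.0329), and the methionine synthase gene MTR at 6.13, 5.73 and 4.92 FPKM, against 7.66, 8.20 and 8.15 FPKM without doxycycline (-0.45, 0.0309). The groups did not overlap in either gene. The MTAP call held only without untreated replicate 1 (0.0491) or treated replicate 3 (0.0492), with adjusted p of 0.0756 to 0.124 in the other 4 fits. The MTR call held only without treated replicate 1 (0.0469), with adjusted p of 0.0554 to 0.119 in the other 5 fits.

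Among transport genes, the caveolin gene CAV1, linked to polyamine uptake by endocytosis, fell and SLC3A2, the heavy chain of amino acid exchangers that has also been linked to polyamine export, rose. CAV1 was at 76.1, 76.2 and 75.3 FPKM with doxycycline, against 108 FPKM in each library without it (log2 change -0.51, limma adjusted p = 0.00510), and the call held whichever library was left out. SLC3A2 was at 101, 104 and 112 FPKM with doxycycline, against 77.7, 75.4 and 70.8 FPKM without it (0.50, 0.00853, and 0.0510 without untreated replicate 2). These were 2 of 7 tested transport genes, against 8.46% of all tested genes called in either direction. The median of the list was -0.01. The lysosomal and endosomal polyamine pumps ATP13A2 and ATP13A3 did not pass the test (adjusted p = 0.973 and 0.510); they were named after their values were seen.

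Spermidine is also the source of hypusine, the modified lysine that DHPS and DOHH build into the translation factor eIF5A. All 5 genes of this route were tested and limma called 0 of them; 3 were higher and 0 lower when p was left unadjusted (under 0.05), against 13.6% of all tested genes higher and 14.3% lower, and their median log2 change was 0.31. EIF5A2 was at 11.8, 10.5 and 6.58 FPKM with doxycycline, against 5.95, 5.98 and 6.02 FPKM without it (log2 change 0.57, adjusted p = 0.0716). Treated replicate 3 was close to the untreated values, and without it the adjusted p was 0.00838. DOHH was at 6.22, 7.26 and 8.51 FPKM with doxycycline, against 5.92, 4.98 and 4.75 FPKM without it (0.42, 0.0727). EIF5A, named after its values were seen, was at 629 ± 69.7 FPKM with doxycycline and 505 ± 40.5 FPKM without it (SD, n = 3 each; limma adjusted p = 0.0801, and 0.0377 with libraries scaled to equal totals); reads could be exchanged with its near-identical copy EIF5AL1. DHPS, also named after its values were seen, was at 31.6 FPKM with doxycycline and 31.9 FPKM without it.

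**Figure D4:**
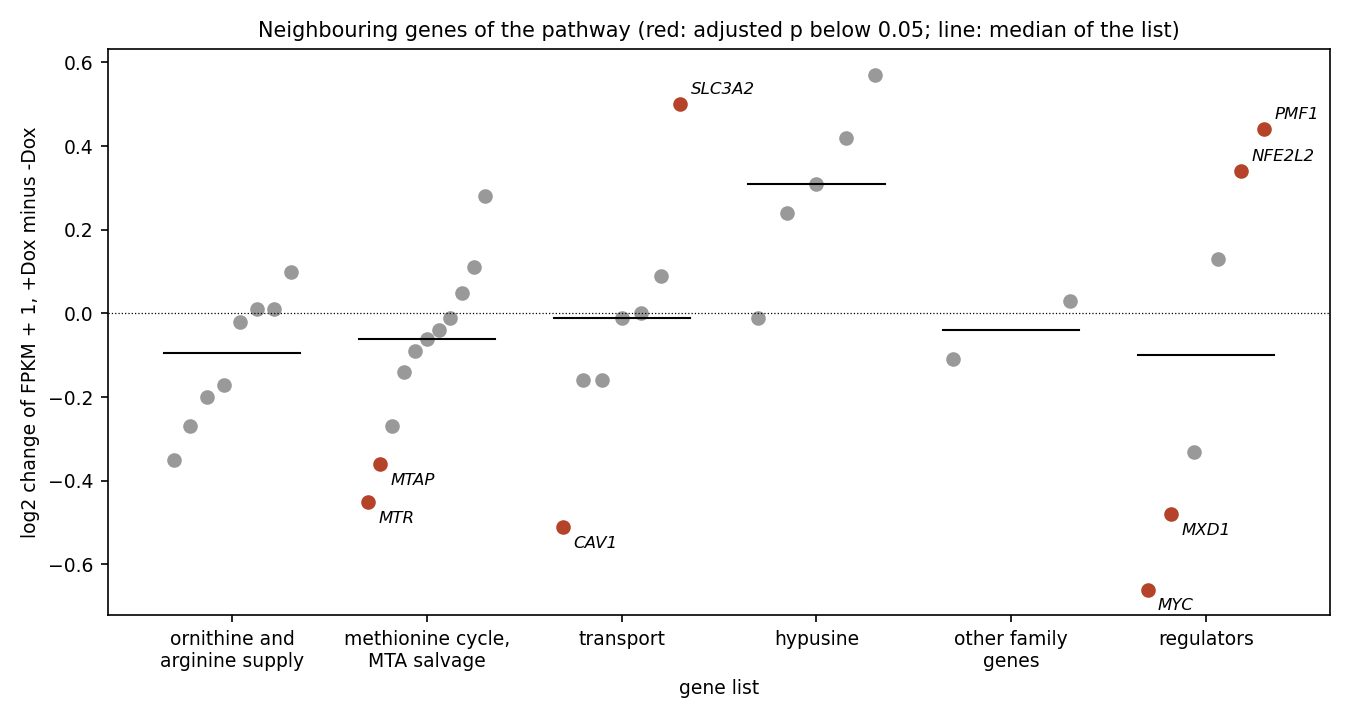
Log2 change of FPKM + 1 with against without doxycycline (y axis) for the 39 tested genes of 6 lists around the pathway (x axis), with the median of each list as a line. Red points, named, passed the threshold: 3 above 0 (SLC3A2, NFE2L2 and PMF1) and 5 below it (MTAP, MTR, CAV1, MYC and MXD1).

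Of 2 tested relatives, the second acetyltransferase gene SAT2 was at 20.4 FPKM with doxycycline and 19.8 FPKM without it (limma adjusted p = 0.895), and the second antizyme inhibitor gene AZIN2 was at 3.79 FPKM with doxycycline and 4.20 FPKM without it (0.578). Of 6 tested genes known to regulate the polyamine genes, 2 rose and 2 fell, against 3.69% and 4.77% of all tested genes. Their median log2 change was -0.10. MYC, a transcription factor known to act on ODC1 and other synthesis genes, was at 58.8, 57.1 and 64.3 FPKM with doxycycline, against 99.6, 94.5 and 91.8 FPKM without it (log2 change -0.66, limma adjusted p = 0.00302), and the call held whichever library was left out. NFE2L2, which encodes NRF2, and PMF1, its partner on the SAT1 promoter, rose (log2 changes 0.34 and 0.44, adjusted p = 0.0308 and 0.0368), while SAT1 fell. MXD1, which competes with MYC for its partner MAX, was at 2.68 FPKM with doxycycline and 4.11 FPKM without it (-0.48, 0.0377). Leaving out a library ended the NFE2L2 call in 4 of 6 fits (up to 0.109), the PMF1 call in 5 (up to 0.0917) and the MXD1 call in all 6 (up to 0.115). Over the 6 lists together, 3 of 39 tested genes were called higher and 5 lower, against 3.69% and 4.77% of all tested genes, and the median was -0.01.

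The genes most like each of the 3 that fell were found by the root mean square difference between log2(FPKM + 1) profiles over the 6 libraries, each profile centred on its own mean. For SMS they were TMEM218 (difference 0.026), PLPP6 (0.027) and AL354714.2 (0.036), where the median over all tested genes was 0.35. For AMD1 they were ERI1 (0.014), DHX40 (0.021) and CHD1L (0.028), and for SAT1 they were ORC3 (0.029), AC010996.1 (0.031) and SDHAF3 (0.033), with a median of 0.23 over all tested genes for either. No other polyamine gene was among them. With only 3 of the 14475 tested genes kept for each, that absence says little about how alike the polyamine genes are.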

How the data were processed

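The deposited values, for 60643 genes in 6 libraries, were treated as FPKM, since they are not whole, have unequal sums and come with no named unit. The submitters' processing notes name Cufflinks, RSEM, kallisto, STAR, Bowtie and BWA with no role or order, and the build hg19. The loci match GRCh38 after an offset of 1 base at the start (39290 of the 39300 identifiers found with their version in GENCODE 29). FPKM values are relative to the library, so a gain in some transcripts lowers the values of others. Depth was estimated from 3987 single-exon genes longer than 1000 bases. It was the number of fragments at which the share of low values within 0.1 of a whole fragment was highest. That share was only 45.6% to 49.3%, so the depth is approximate. Limits taken from it cover counting error only.

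The test was limma 3.58.1 (R 4.3.3) on log2(FPKM + 1) of the 14475 genes that reached 1 FPKM in 3 or more libraries, with trended, robust variances, the group as covariate, two-sided p-values, Benjamini-Hochberg adjustment over all of them and a threshold of 0.05. This scale understates the change of low genes. The exact permutation p of CAPG, SMS, AMD1 or SAT1 is 0.1, the smallest that 3 against 3 libraries allow. The polyamine genes and the lists were chosen with earlier results of these data known. Named genes were CAPG, the 10 polyamine genes, the called genes of each list or else its 2 smallest p-values, the 3 nearest profiles of each called polyamine gene, and rows overlapping or derived from a polyamine gene; other list genes are marked where named, and markers and EIF5AL1 were named as checks. Alternatives were another pseudocount, other filters, 2 other scalings, a plain fit, a replicate term, each library left out, and, added after seeing the data, a length and GC correction.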

Additional observations from a re-analysis of the deposited data

How the results depend on the processing

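No called polyamine gene changed direction under any setting run. SMS, like CAPG, kept its call under every setting run. The SAT1 change (-0.33) missed the threshold at the same -0.33 with no filter on low values (limma adjusted p = 0.102), a plain fit (0.0650) and a replicate block (0.0965); the AMD1 change (-0.32) did at -0.32 with no filter (0.135), median-of-ratios scaling (0.0521), a plain fit (0.0762) and the replicate block (0.124). Without 1 library, SAT1 ranged from -0.39 to -0.30, AMD1 from -0.36 to -0.26 and SMOX from -0.44 to -0.22. The length and GC correction, chosen after seeing the data, put OAZ1 (0.21, 0.0415), SRM (-0.25, 0.0385) and SMOX (-0.31, 0.0429) past the threshold. It thus called 1 polyamine gene higher and 5 lower. Of all 14406 genes tested with it, 1214 were called higher and 1245 lower, against 534 and 691 in the main fit. The cause was not tested.

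Polyamine genes called lower numbered 1 with no filter, a plain fit or the replicate block, 2 with median-of-ratios scaling, and 1 to 2 without 1 library. Over the 6 lists, genes called higher and lower numbered 0 and 2 with no filter, 1 and 4 with a plain fit, 0 and 2 with the replicate block, 6 and 8 with the length and GC correction, and 0 to 3 and 2 to 3 without 1 library. Over all genes they were 53 and 100 with no filter, 354 and 605 with a plain fit, 69 and 142 with the replicate block, 1214 and 1245 with the correction, and 76 to 412 and 147 to 588 without 1 library, lowest without untreated replicate 2. The values gave no sign that replicate numbers pair the libraries, though they cannot show how the libraries were prepared. Deviations of same-numbered libraries from their group means correlated at -0.043, 0.009 and -0.023, and not every library was closest to its own number. No polyamine symbol was on more than 1 row, so the planned sum of rows gave no value. Depth limits PAOX most.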
